A study of Homo sapiens with 6 samples.

Results

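The 10 core genes of the circadian clock, CLOCK, ARNTL, PER1, PER2, PER3, CRY1, CRY2, NR1D1, NR1D2 and DBP, were followed in NGP cells given the kinase inhibitor OTSSP167. They were taken by symbol from the table of counts per gene, and all 10 were found among its 19863 rows. NGP is an established human neuroblastoma line with amplified MYCN, grown here in RPMI-1640 with serum. One group of 3 libraries received OTSSP167 at 60 nM for 12 h and the other group of 3 received the same volume of the solvent DMSO. The comparison asked which clock transcripts differed between treated and control cells of this single line. The labels name 1 collection time and no step that would set the cells to a common clock phase. A change of level and a change of phase therefore cannot be told apart.

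The clock is a loop of transcription factors that runs in most cell types. CLOCK and ARNTL (also called BMAL1) pair up, bind E-box sequences in promoters and switch on the PER and CRY genes, whose proteins then block the pair. A second loop runs through the nuclear receptors NR1D1 and NR1D2 (REV-ERB alpha and beta), which repress ARNTL, and DBP carries the rhythm to output genes through D-box sequences. In neuroblastoma cells, amplified MYCN has been reported to raise NR1D1 and to lower ARNTL.

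Sequences that match the motifs of these factors lay near the starts of most of the clock genes. They are shown as matches to the motifs that clock factors are known to bind, without a test of binding or function here. RefSeq promoters (GRCh38.p14) were found for all 10 members, as 15 windows of the 250 bases before a start. Both strands were searched for the E-box CACGTG, its variant CACGTT (called E-prime below), the D-box TTATGTAA, the core TAGGTCA read by ROR and NR1D proteins, and the cAMP element TGACGTCA. On the reverse strand the E-prime form reads AACGTG and the D-box reads as the NR1D2 site below. Matches did not overlap one another. Each site below is printed in the direction of its gene with 11 bases on either side, and capitals mark the match.
CRY1, E-prime, chr12:107093622-107093649, minus strand: cacacttcagaAACGTGaggtgccggtg
CRY2, E-prime, chr11:45847276-45847303, plus strand: cacatggtaggAACGTGagggggcgggc
CRY2, ROR core, chr11:45847399-45847427, plus strand: ttgcggcgtcaTAGGTCActgggcgggct
PER1, E-box, chr17:8152561-8152588, minus strand: gcacccaggtcCACGTGcgcccgtgtgt
PER2, E-prime, chr2:238288791-238288818, minus strand: gcgcgcgcggtCACGTTttccactatgt
PER3, D-box, chr1:7784103-7784132, plus strand: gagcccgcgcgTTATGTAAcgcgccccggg
NR1D1, E-prime, chr17:40100741-40100768, minus strand: cgcaagagctcAACGTGccggctgttgg
NR1D2, D-box, chr3:23945916-23945945, plus strand: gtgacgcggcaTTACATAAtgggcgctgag
NR1D2, E-box, chr3:23945955-23945982, plus strand: gcgggcggggaCACGTGaggccgctcgg
NR1D2, E-box, chr3:23946005-23946032, plus strand: ggccgcagggaCACGTGggggcgggggc
CLOCK, E-prime, chr4:55546103-55546130, minus strand: caccactcgggCACGTTtggagcagcgc

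At least 1 exact match was present in 8 members, and ARNTL and DBP had none in these windows. CLOCK, ARNTL, PER3, CRY2 and NR1D2 had 2 windows each, and the share of all genes with any match was not computed. Sites that differ from the motif by a base, or that lie outside the windows, were not searched for. The E-box was in 2 of the 15 windows (6.34% of 35116 promoter windows of the same length held it), the E-prime form in 5 (4.55%) and the D-box in 2 (0.834%). The ROR core was in 1 window (1.61% of all) and the cAMP element in 0 (1.65%). CRY1 and CRY2 both hold the E-prime form, 89 and 188 bases before the RefSeq start used. For most members the GENCODE gene given below begins upstream of the RefSeq start whose window holds the site, so all sites printed except those of PER3 and NR1D1 lie inside the GENCODE gene. Exonic bases made up 28 of the 28 bases of the CRY1 site, 6 of 28 of the CRY2 E-prime site and 22 of 29 of the CRY2 ROR site. Their transcripts moved in opposite directions, as described below. A match is a description of letters, and no binding was measured.

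OTSSP167 treatment went with higher levels of 7 clock transcripts (CRY2, DBP, NR1D1, PER3, CLOCK, PER1 and NR1D2) and a lower level of CRY1, while ARNTL and PER2 did not pass the test. The largest well-measured changes were in the cryptochromes, where CRY1 fell 5.45-fold and CRY2 rose 3.33-fold. The background was broad. In edgeR's quasi-likelihood test with Benjamini-Hochberg adjustment over all 14402 genes tested, 46.1% passed, 23.8% as higher and 22.3% as lower with OTSSP167. Against a change of at least 1.5-fold, 4 members passed (CRY2, PER3 and DBP higher, CRY1 lower). The shares of all genes there were 19.6%, 10.6% higher and 9.03% lower. The number of members passing as higher was 4 without DMSO replicate 1, 3 without DMSO replicate 2 and 3 without DMSO replicate 3. It was 5 without any 1 OTSSP167 library. Over all genes, 3423 passed as higher with all libraries. With 1 library left out, 2818 to 2999 of 14633 to 14770 genes tested did. The treated libraries lay outside the control range in 8 members, 7 above and 1 below. That held in 60.4% of all genes, 30.8% above and 29.6% below. The median log2 fold change was 0.83 over the 10 members, which ran from -2.45 to 3.78, and 0.01 over all genes tested. The list was chosen with earlier results of these data known, so these figures do not test a shift of the clock genes as a set. All 10 members passed the filter on low counts.

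Levels are in CPM, the count of a gene relative to its library's total after scaling by the TMM method. They are relative to the other counted transcripts, so fewer cells of a type and less RNA per cell cannot be told apart. Library totals were 36401828 to 57460375 counts. Nothing in the labels says that replicate libraries are separate cultures. The p-values then measure the spread between these libraries alone, and that spread may be technical. Of 10 adrenergic neuroblastoma markers, 6 fell, MYCN, PHOX2A, GATA2 and ISL1 among them, and GATA3 rose. The summed level of the 10 was 10145 to 10505 CPM in DMSO and 6928 to 7121 CPM in OTSSP167. MYCN made up most of that sum, at 7544 CPM on average in DMSO and 4495 CPM in OTSSP167. HAND2, TH and DBH did not pass, and TH was near 0 in both groups (0.266 and 0.148 CPM on average). DBH measured 12.2, 7.26 and 7.17 CPM in DMSO and 0.485, 0 and 2.21 CPM in OTSSP167. Its log2 fold change was -3.33 (edgeR adjusted p = 0.108). The 5 Schwann and glial genes summed to at most 0.571 CPM in DMSO and 8.17 CPM in OTSSP167, with SOX10 at 0 in all libraries, and 2 of them rose. The 4 immune genes summed to 0.254 to 0.613 and 12.2 to 15.6 CPM, with CD3E at 0 and CD14 raised. The 5 fibroblast and endothelial genes summed to 83.1 to 97.3 and 34.5 to 35.6 CPM, with DCN at 0 in all libraries and COL1A1 and PDGFRB lower. PDGFRB made up most of that sum, at 73.8 CPM on average in DMSO and 27.1 CPM in OTSSP167. Their part in the clock results was not tested.

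**Figure D1:**
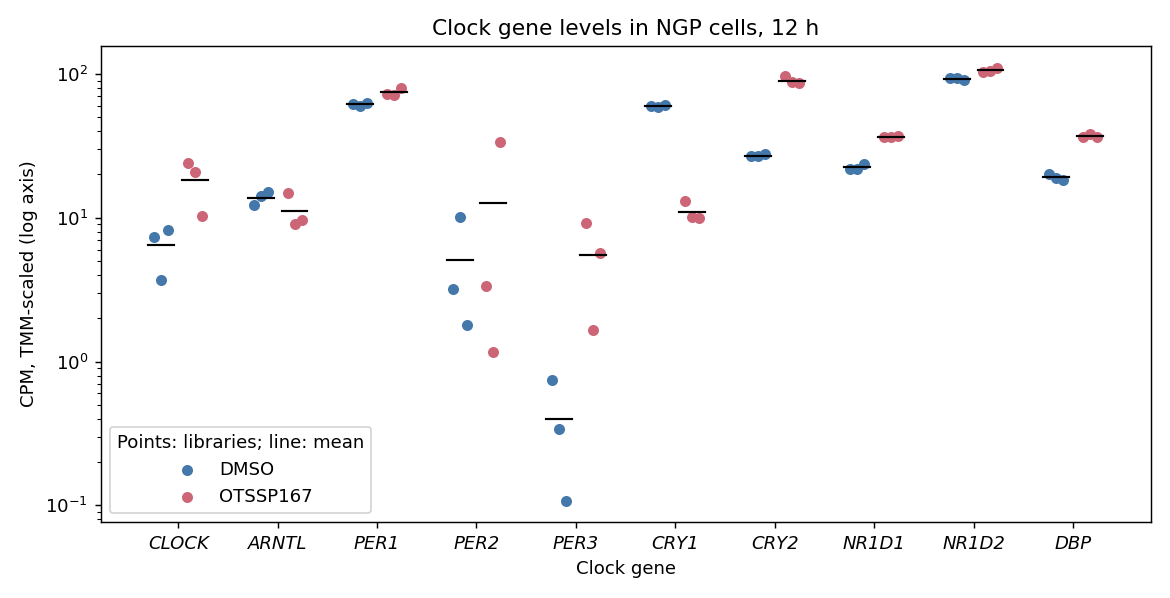
Level of each clock gene (CPM, log axis) in the 3 DMSO and 3 OTSSP167 libraries, with a line at the group mean. CRY1 sits near 60 CPM in DMSO and near 10 CPM in OTSSP167, CRY2 moves the other way, and the libraries of PER2, PER3 and CLOCK scatter within each group.

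CRY1 and CRY2 encode the cryptochromes, the strongest repressors of the CLOCK-ARNTL pair. CRY1 (chromosome 12, 106991364 to 107093829) stood at 60.3, 59.1 and 61.0 CPM in DMSO replicates 1 to 3 and at 13.1, 10.1 and 9.91 CPM in OTSSP167 replicates 1 to 3. Every treated library was far below every control. The log2 fold change was -2.45 (SE 0.14, edgeR adjusted p = 0.000141). CRY2 (chromosome 11, 45847118 to 45883248) measured 26.8, 26.8 and 27.6 CPM in DMSO and 96.2, 87.5 and 86.5 CPM in OTSSP167. Again the groups did not overlap, with all 3 treated libraries above the controls. Its log2 fold change was 1.73 (SE 0.07, edgeR adjusted p = 6.16e-05). Both changes also passed against 1.5-fold (adjusted p = 0.000447 for CRY1 and 0.000254 for CRY2).

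The make-up of the cryptochrome transcripts turned over with these changes. CRY1 gave 69.2%, 68.8% and 68.9% of the CRY1 and CRY2 counts in the DMSO libraries. In the OTSSP167 libraries it gave 12.0%, 10.3% and 10.3%. CRY1 was the majority in each control library and a small minority in each treated one.

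**Figure D2:**
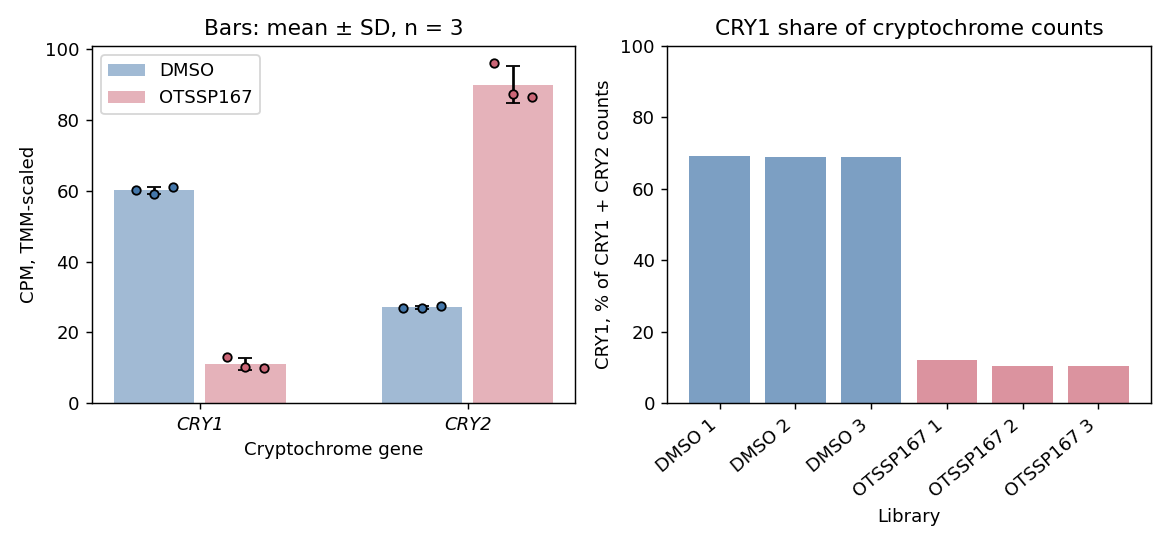
Left, level of CRY1 and CRY2 (CPM) as bars of the mean ± SD with each library as a point; right, CRY1 as a percentage of CRY1 and CRY2 counts in each library. The share is 68.8 to 69.2% in the DMSO libraries and 10.3 to 12.0% in the OTSSP167 libraries.

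The PER genes encode the partners with which cryptochromes enter the nucleus. PER1 (chromosome 17, 8140472 to 8156506) was the most abundant of them, at 61.4, 60.3 and 62.5 CPM in DMSO and 72.4, 71.9 and 79.5 CPM in OTSSP167. The treated libraries lay above the controls by a small margin. On the log2 scale this was a change of 0.28 (SE 0.07, edgeR adjusted p = 0.0186). The call was lost when any 1 DMSO library was left out (adjusted p = 0.0598 to 0.0710). PER3 (chromosome 1, 7784320 to 7845177) was barely detected in DMSO, at 0.742, 0.338 and 0.108 CPM, and reached 9.19, 1.67 and 5.65 CPM in OTSSP167. These values rest on 38, 16 and 5 counts and on 360, 95 and 207 counts. No treated library fell within the control range, but the libraries of a group differed by 6.87-fold in DMSO and 5.52-fold in OTSSP167. Its log2 fold change of 3.78 had an SE of 0.94 and a 95% interval of 1.43 to 6.12 (edgeR adjusted p = 0.0227). The estimate was 4.6 without DMSO replicate 1 and 3.19 without OTSSP167 replicate 1. Leaving out DMSO replicate 2 (adjusted p = 0.0774) or 3 (0.0524), or OTSSP167 replicate 1 (0.0571) or 3 (0.0528), ended the call.

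PER2 (chromosome 2, 238244038 to 238290102) could not be placed. It measured 3.20, 10.2 and 1.79 CPM in DMSO and 3.34, 1.16 and 33.5 CPM in OTSSP167. The groups overlapped, and OTSSP167 replicate 3 stood far above the other treated libraries. Its log2 fold change of 1.33 had a 95% interval of -2.09 to 4.75 (edgeR adjusted p = 0.466), and without OTSSP167 replicate 3 the estimate was -1.17 (adjusted p = 0.385). These values rest on 66 to 1229 counts per library. Among 12671 genes of at least 1 CPM on average, 28.7% ranged over more than 2-fold within a group, while PER2 ranged over 5.66-fold in DMSO and 28.99-fold in OTSSP167.

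CLOCK and ARNTL form the activating pair. CLOCK (chromosome 4, 55427903 to 55547138) measured 7.40, 3.70 and 8.16 CPM in DMSO and 23.9, 20.9 and 10.3 CPM in OTSSP167. OTSSP167 replicate 3 was close to the highest control, and the other treated libraries were well above it. The rise was 1.52 on the log2 scale (SE 0.44, 95% interval 0.40 to 2.63, edgeR adjusted p = 0.0385). It no longer passed when any single library other than OTSSP167 replicate 3 was left out (adjusted p = 0.0650 to 0.101). ARNTL (chromosome 11, 13276652 to 13387266) measured 12.3, 14.1 and 15.1 CPM in DMSO and 14.9, 9.12 and 9.69 CPM in OTSSP167. OTSSP167 replicate 1 lay inside the control range. The log2 fold change was -0.30 with a 95% interval of -0.87 to 0.27 (edgeR adjusted p = 0.330). That interval holds a small rise and a larger fall. The estimate was -0.56 without OTSSP167 replicate 1 (edgeR adjusted p = 0.0502) and -0.17 without OTSSP167 replicate 2 (edgeR adjusted p = 0.605).

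NR1D1 and NR1D2 repress ARNTL and other genes through ROR elements. NR1D1 (chromosome 17, 40092787 to 40100725) measured 21.9, 21.8 and 23.6 CPM in DMSO and 36.2, 36.5 and 36.8 CPM in OTSSP167. Both groups were tight and well apart. The log2 fold change was 0.70 (SE 0.08, edgeR adjusted p = 0.00161), a rise of 1.63-fold that did not pass against 1.5-fold (adjusted p = 0.122). NR1D2 (chromosome 3, 23945260 to 23980618) was the most abundant member by CPM, at 93.1, 94.2 and 91.3 CPM in DMSO and 103.7, 105.0 and 110.8 CPM in OTSSP167. The shift was small, although no libraries overlapped. Its log2 fold change was 0.20 (SE 0.05, edgeR adjusted p = 0.0231), with adjusted p = 0.0530 to 0.0940 without any 1 library except OTSSP167 replicate 1.

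DBP, a transcription factor that binds D-boxes and is driven directly by the CLOCK-ARNTL pair, rose 1.93-fold. DBP (chromosome 19, 48630030 to 48637438) stood at 20.1, 19.0 and 18.4 CPM in DMSO and at 36.3, 38.5 and 36.4 CPM in OTSSP167. The treated libraries were all above the controls and close to one another. Its log2 fold change was 0.95 (SE 0.09, edgeR adjusted p = 0.000686), and it passed against 1.5-fold (adjusted p = 0.00911).

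Some of these genes share exonic bases with neighbours in GENCODE release 29, and no source used here gives the strand setting of the counting. Reads from shared bases could belong to either gene. NR1D1 shares 263 exonic bases with THRA, a thyroid hormone receptor gene on the opposite strand, which went up from 60.5 to 123.7 CPM. The log2 change of THRA was 1.03 (edgeR adjusted p = 0.000154). The part of THRA in the NR1D1 rise was not tested. DBP shares 661 exonic bases with SPHK2, which fell by 0.26 on the log2 scale. CLOCK shares 76 with TMEM165, which fell by 0.19. The part of shared reads in the DBP and CLOCK values was not tested. PER3 shares 868 bases with UTS2, which was at 0 in all libraries. NR1D2 overlaps NKIRAS1, with 0 shared exonic bases, and NKIRAS1 rose by 0.62. Other annotated transcripts that overlap members, mostly antisense or small RNAs, have no row of their own in the table.

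Further neighbours lie within 10 kb without shared exons. MTERF2, 4198 bases downstream of CRY1, fell by 0.54 on the log2 scale, and VAMP2, upstream of PER1, fell by 0.68. HES6, downstream of PER2, rose by 0.37. MAPK8IP1 beside CRY2 (-0.26), VAMP3 beside PER3 (0.24), BTBD10 beside ARNTL (0.04) and CA11 beside DBP (-0.05) did not pass the test, and PDCL2 beside CLOCK was at 0 in all libraries.

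The order of the clock genes by level changed mainly through the cryptochromes. To compare genes, CPM was divided by the exonic length in kb of the GENCODE basic transcripts. In DMSO the order was CRY1 (18.4 ± 0.287 CPM per kb, SD, n = 3), NR1D2 (17.7 ± 0.277), PER1 (11.2 ± 0.199), NR1D1 (8.10 ± 0.371), DBP (6.67 ± 0.305), CRY2 (6.2 ± 0.102), ARNTL (4.57 ± 0.479), PER2, CLOCK and PER3. Of these neighbours in the order, PER2 and CLOCK had overlapping ranges. With OTSSP167, CRY2 stood first (20.6 ± 1.22 CPM per kb) and overlapped NR1D2 (20.3 ± 0.718). PER1, NR1D1 and DBP followed at 13.7 ± 0.784, 13.2 ± 0.101 and 12.9 ± 0.444 CPM per kb, each overlapping the next. Below them came ARNTL (3.71 ± 1.04), CRY1 (3.38 ± 0.548), PER2, CLOCK and PER3, each overlapping the next. CRY1 thus moved from the first to the 7th place and CRY2 from the 6th to the first.

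**Figure D3:**
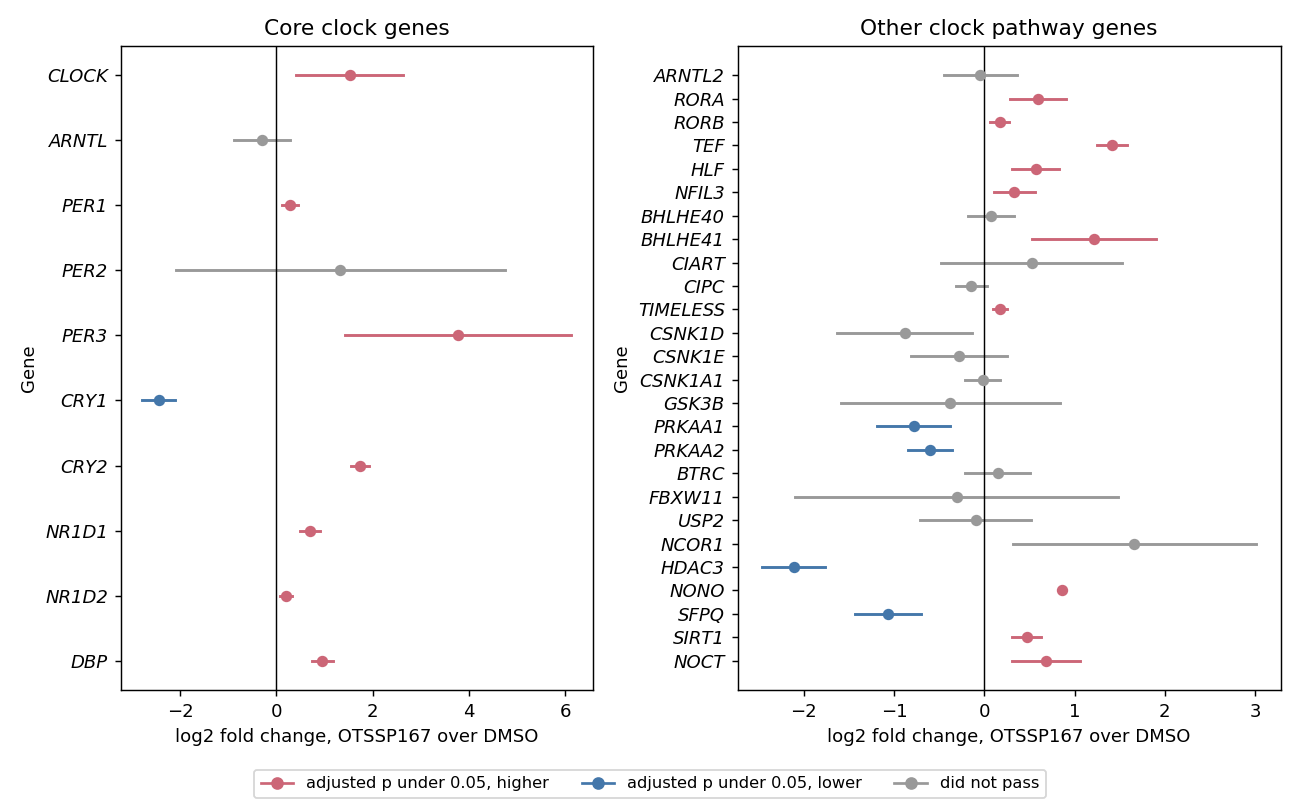
Log2 fold change (OTSSP167 over DMSO) with its 95% interval from edgeR for the 10 core clock genes (left) and for other tested genes of the clock pathway (right), coloured by whether the adjusted p was under 0.05. CRY1 (-2.45) and HDAC3 (-2.11) are the lowest called values, and PER3 (3.78) is the highest, with a wide interval.

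The wider pathway was read from a list of 30 further clock genes, of which 29 were in the table and 28 were tested. Of these, 11 rose, 4 fell and 13 did not pass, so 53.6% passed, beside 46.1% of all genes, and the median log2 fold change was 0.11. NPAS2, a CLOCK paralog, was at 0 counts in DMSO and at 15, 4 and 0 counts in OTSSP167, too few to test. ARNTL2, a paralog of ARNTL, measured 8.48 ± 0.343 and 8.23 ± 1.25 CPM (log2 fold change -0.04, 95% interval -0.45 to 0.36).

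All 3 other genes of D-box factors rose, where 23.8% of all genes passed as higher. TEF, which like DBP activates D-box genes, measured 33.8, 31.4 and 34.1 CPM in DMSO and 89.9, 87.2 and 87.3 CPM in OTSSP167. The groups were tight and far apart, with a log2 change of 1.41 and an SE of 0.07 (edgeR adjusted p = 8.14e-05). HLF, of the same family, rose from 16.2 ± 1.23 to 24.0 ± 0.677 CPM (log2 fold change 0.57). NFIL3, which represses through the same element, rose from 26.9 ± 0.997 to 33.9 ± 2.1 CPM (0.33, edgeR adjusted p = 0.0288), and this small rise was lost on leaving out any library but OTSSP167 replicate 1 (adjusted p = 0.0626 to 0.0961).

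Of the ROR genes, which encode activators of ARNTL that compete with NR1D proteins, RORA rose from 13.8 ± 1.03 to 20.9 ± 1.92 CPM (log2 fold change 0.60). RORB was more abundant and rose by 0.17, without passing when DMSO replicate 1 or 2 or OTSSP167 replicate 2 or 3 was left out (adjusted p = 0.0509 to 0.0648). Among 5 genes of E-box repressors and related proteins, BHLHE41 rose at a low level, from 0.595 ± 0.0249 to 1.38 ± 0.271 CPM (log2 fold change 1.22, edgeR adjusted p = 0.0157). Leaving out OTSSP167 replicate 2 (adjusted p = 0.0565) or 3 (0.0525) ended that call. TIMELESS, better known for its role in DNA replication in human cells, rose by 0.18, and BHLHE40, CIART and CIPC did not pass.

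Among the 6 kinase genes for PER and CRY proteins, 0 passed as higher and 2 as lower, a count near the background of 23.8% higher and 22.3% lower over all genes. PRKAA1 and PRKAA2 encode the catalytic subunits of AMP-activated kinase, which marks CRY1 for breakdown. PRKAA1 fell from 44.9 ± 8.15 to 26.1 ± 2.07 CPM (log2 fold change -0.78, edgeR adjusted p = 0.0119), and PRKAA2 fell from 76.2 ± 3.10 to 50.3 ± 5.39 CPM (-0.60, edgeR adjusted p = 0.00519). CSNK1D, a casein kinase of PER proteins, measured 123.5 ± 21.8 and 67.2 ± 22.9 CPM without overlap of the groups, with edgeR adjusted p = 0.0595. CSNK1E, CSNK1A1 and GSK3B did not pass. Of the ubiquitin pathway genes, BTRC, FBXW11 and USP2, which act on the stability of clock proteins, did not pass.

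The partners of the repressors went both ways. HDAC3, the deacetylase through which NR1D proteins silence their targets, stood at 64.4, 52.5 and 66.6 CPM in DMSO and 15.7, 12.7 and 14.1 CPM in OTSSP167. It was lower in every treated library (log2 fold change -2.11, SE 0.14, edgeR adjusted p = 0.000230). NCOR1, the corepressor that bridges NR1D proteins and HDAC3, was at 5.18, 17.0 and 9.18 CPM in DMSO and at 35.7, 44.6 and 18.9 CPM in OTSSP167. It did not pass (edgeR adjusted p = 0.0516). Over 15 alternatives NCOR1 passed in 7, with adjusted p from 0.00478 (DESeq2) to 0.138 (edgeR without DMSO replicate 3). NONO and SFPQ, RNA-binding proteins found in PER complexes, diverged. NONO averaged 878.3 ± 8.49 CPM in the controls and 1590.3 ± 24.5 CPM after treatment, a log2 change of 0.86 with an SE of 0.02 (edgeR adjusted p = 1.18e-05). SFPQ fell from 171.1 ± 29.8 to 81.9 ± 7.30 CPM (log2 fold change -1.06, edgeR adjusted p = 0.00306). SIRT1, a deacetylase that acts on PER2, rose by 0.47. NOCT, whose transcript is rhythmic in many tissues, rose from 38.9 ± 4.34 to 62.5 ± 9.48 CPM (log2 fold change 0.68), a call that ended without DMSO replicate 2 (adjusted p = 0.0533) or 3 (0.0502).

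**Figure D4:**
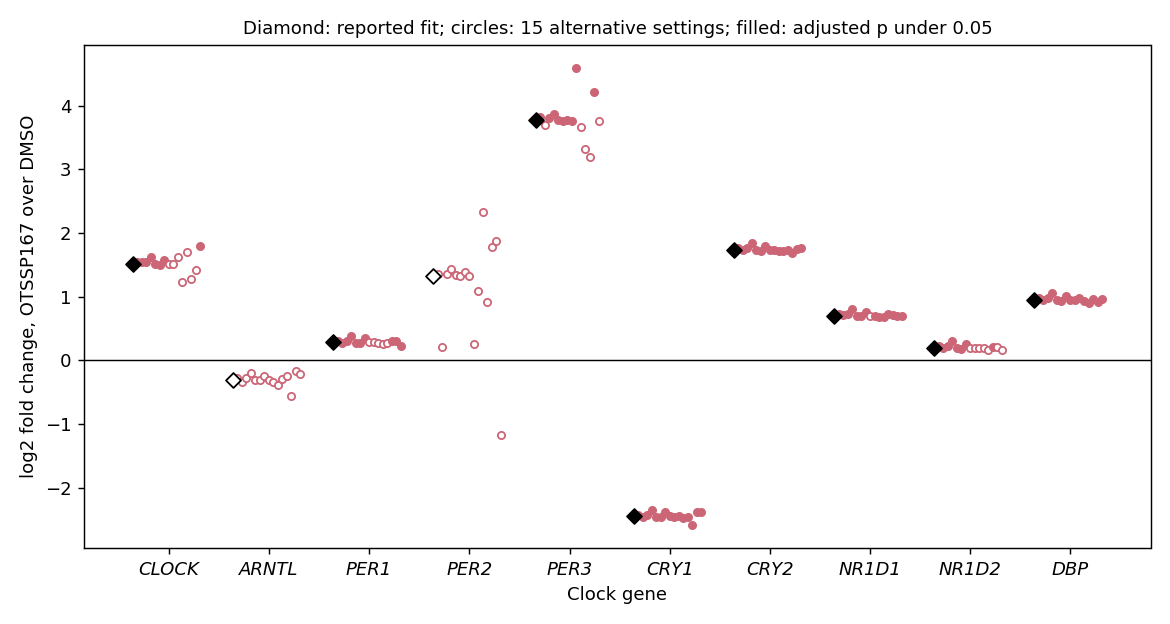
Log2 fold change of each core clock gene in the reported fit (diamond) and in the alternative settings (circles), filled where the adjusted p was under 0.05. CRY1, CRY2 and DBP are filled in every setting, NR1D1 is open in 1 setting (the 1.5-fold test), and PER2 spreads from -1.17 to 2.34 with no filled point.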

How the data were processed

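RNA of NGP cells was sequenced in 6 libraries, which the labels' protocols describe as SMARTer mRNA preparations of total RNA. The authors deposited 1 table of whole-number counts per gene symbol. Per the submitters' processing notes, FastQC 0.11.2, HISAT2 2.1.0, StringTie 1.3.5 and the build GRCh38.p13 were used. Their roles, the annotation, the strandedness and the filters are not stated in the sources used here. For 58 repeated symbols the name stayed with the row of highest summed count.

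Tests on the counts used edgeR 4.0.16 under R 4.3.3 (low-count filter by filterByExpr, TMM, robust quasi-likelihood F test of treatment, Benjamini-Hochberg adjustment over 14402 genes, threshold 0.05; glmTreat for changes beyond 1.5-fold). The SE is the log2 fold change divided by the square root of F, and intervals are 95%. Alternatives were DESeq2 1.42.0, limma-voom (limma 3.58.1), other scalings and filters, a replicate block, and each library left out. Positions are from GENCODE release 29 (GRCh38). Replicates differed by a chi-square of 90.3 to 111.2 per gene, where sampling noise alone gives about 1, so no library was a copy. The members and gene lists were chosen with earlier results of these data known. All 10 members are named; of the wider list, the genes that passed are named, with the gene of smallest p where none of a role did; other genes are mentioned by their overlap or distance or as members that did not pass. Results for some listed genes are not reported here, although the counts and sums over lists include them.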

Additional observations from a re-analysis of the deposited data

How the results depend on the processing

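The fall of CRY1 and the rises of CRY2 and DBP passed in all 15 alternatives. No called member and no called gene of the wider list changed direction in any, while some genes that did not pass changed sign. NR1D1 failed only the 1.5-fold test. CLOCK, PER1, PER3 and NR1D2 were lost in 5 to 7 alternatives each, mostly those with fewer samples. The number of members passing as higher was 7 in the reported fit, 3 against 1.5-fold, 4 with the replicate number as a block, and 3 to 5 with single libraries left out: 4 without DMSO replicate 1, 3 without DMSO replicate 2 and 3 without DMSO replicate 3. The fits with a library left out have fewer samples, while the 1.5-fold test and the block use all libraries. The cause of the lower counts was not tested. Over all genes, 3423 passed as higher in the reported fit, 2422 with the block and 2818 to 2999 with single libraries left out. The 1.5-fold test, a stricter question by construction, passed 1526 genes as higher and 1300 as lower over all genes, and 2 higher and 2 lower of the wider list; with the block 6 of the wider list were higher. With the block CLOCK, PER1 and NR1D2 had adjusted p = 0.105, 0.0564 and 0.0860. Same-numbered libraries deviated together only weakly (correlations 0.02, 0.04 and 0.01), each the highest for its number. Other pairs gave -0.031 to 0.007. Values this small do not settle whether the libraries were paired, and the labels do not state it. PER3 was removed by the filter of 1 CPM in each library and did not pass in limma-voom (adjusted p = 0.0680). Of the 15 called genes of the wider list, 4 kept the call in all alternatives (TEF, HDAC3, NONO and SFPQ). The other 11 lost it in some, the 1.5-fold test among them. With the block RORA and PRKAA1 had edgeR adjusted p = 0.0572 and 0.0593. Of the genes not called, CSNK1D (DESeq2 and limma-voom), NCOR1 (7 settings) and CSNK1E (1) passed in some alternatives. Upper-quartile scaling moved the median of all genes by 0.10 on the log2 scale; there PER1 and NR1D2 changed by 0.38 and 0.30. PER3 and NPAS2 had few counts in DMSO, 5 to 38 per library for PER3 and 0 for NPAS2. The part of counting error in the PER3 spread was not tested.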
